A study of Mus musculus with 34 samples.

Results

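YAP and TAZ are transcriptional cofactors of the Hippo pathway, and 10 genes around them were followed in J1 mESCs, out of the 23366 genes in the deposited table. The 10 were matched by symbol. They are 6 target genes (Cyr61, Ctgf, Thbs1, Ankrd1, Amotl2 and Lats2), the 2 cofactor genes (Yap1, and Wwtr1 for TAZ) and 2 genes for their DNA-binding partners (Tead1 and Tead2). They were chosen by name, but with the normalized counts of this same comparison already known, in which Cyr61 and Thbs1 were among the genes with the largest decreases. Their own differences are therefore given as a description without a test.

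The RNA-seq set held 2 libraries of mESCs in serum/-LIF medium and 2 of mESCs in the same medium with Royalactin (serum/-LIF + Royalactin). Royalactin, a royal jelly protein of the honey bee, was added at 0.5 mg/ml. J1 is a mouse embryonic stem cell line that normally needs the cytokine LIF to stay undifferentiated. All 4 libraries came from cells grown on gelatin without LIF and carry passage number 40 in the sample labels. The paper names an earlier passage for its RNA-seq. The values are read counts per gene divided by a size factor for each library, called normalized counts here. No label says whether replicates came from separate cultures, so the spread between them may be technical. Between 14737796 and 17597818 reads lay on genes per library, or 7878527 to 15999458 without the ribosomal precursor Rn45s, which took 9.08% to 46.6% of reads. The shallowest library without Rn45s was serum/-LIF replicate 1, in which 8 of the 10 genes had their higher serum/-LIF value. Markers of pluripotent cells were present in every library. Pou5f1 had between 4996 and 7453 normalized counts and overlapped between the groups, but other such markers differed strongly, as given with the cell markers below.

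In the Hippo pathway, the kinases LATS1 and LATS2 phosphorylate YAP and TAZ and keep them out of the nucleus. Dephosphorylated YAP and TAZ enter the nucleus, bind the TEAD factors and switch on genes such as Cyr61 and Ctgf, whose secreted products sit in the extracellular matrix and signal to cells without building it, and are called matricellular for that reason. Cell spreading, a stiff matrix and serum lipids are known activators. The activity of YAP is set mostly at the protein, so the mRNA levels of Yap1 and the Tead genes do not measure it.

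The promoters of 7 of the 10 genes were in the RefSeq table (GRCm38.p6), and Ctgf, Thbs1 and Tead1 were not. In the 250 bases before the start site, the TEAD core motif GGAATG was searched on both strands, where the other strand reads CATTCC. It was found in 5 of the 7 promoters, against 12.6% of all 27025 promoters and 10.5% of those of the genes tested. Because the genes were chosen as YAP/TEAD genes, nothing is read from this share of promoters. The 5 are printed 5′ to 3′ with the motif in capitals, to show where these letters lie in target genes that differed between the cultures and in the cofactor genes themselves.
Cyr61 promoter, chr3:145649986-145650235, minus strand: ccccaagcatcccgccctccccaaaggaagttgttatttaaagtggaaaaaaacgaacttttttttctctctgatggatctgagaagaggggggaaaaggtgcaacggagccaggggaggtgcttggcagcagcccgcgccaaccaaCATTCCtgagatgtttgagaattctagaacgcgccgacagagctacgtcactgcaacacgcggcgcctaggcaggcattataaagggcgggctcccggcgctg
Ankrd1 promoter, chr19:36119845-36120094, minus strand: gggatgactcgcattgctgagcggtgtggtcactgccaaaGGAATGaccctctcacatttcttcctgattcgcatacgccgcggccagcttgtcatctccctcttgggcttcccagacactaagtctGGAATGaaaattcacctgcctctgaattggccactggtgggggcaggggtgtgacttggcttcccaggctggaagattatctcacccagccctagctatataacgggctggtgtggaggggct
Amotl2 promoter, chr9:102717554-102717803, plus strand: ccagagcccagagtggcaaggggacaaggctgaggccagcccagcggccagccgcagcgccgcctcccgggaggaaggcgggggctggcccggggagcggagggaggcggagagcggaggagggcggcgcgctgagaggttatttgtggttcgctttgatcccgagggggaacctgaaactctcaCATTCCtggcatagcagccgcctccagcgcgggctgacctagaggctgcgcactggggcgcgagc
Yap1 promoter, chr9:8004597-8004846, minus strand: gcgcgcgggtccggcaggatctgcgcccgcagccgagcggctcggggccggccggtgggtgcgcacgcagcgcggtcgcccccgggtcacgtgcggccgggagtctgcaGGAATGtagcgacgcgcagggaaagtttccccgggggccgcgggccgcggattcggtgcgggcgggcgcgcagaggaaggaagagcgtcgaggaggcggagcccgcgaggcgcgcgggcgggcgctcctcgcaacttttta
Wwtr1 promoter, chr3:57575911-57576160, minus strand: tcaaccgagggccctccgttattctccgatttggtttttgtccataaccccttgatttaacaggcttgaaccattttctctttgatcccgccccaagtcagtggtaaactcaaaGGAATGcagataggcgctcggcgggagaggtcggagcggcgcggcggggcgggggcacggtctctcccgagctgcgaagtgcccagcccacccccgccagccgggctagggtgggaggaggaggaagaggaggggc

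The motif began 103 bases before the start in Cyr61, 210 and 123 bases in Ankrd1, 65 bases in Amotl2, 141 bases in Yap1 and 136 bases in Wwtr1. Lats2 and Tead2 held none in this window. None of the 7 held an AP-1 motif (TGANTCA, which reads as its own complement, in 6.85% of all promoters) or a CArG box, the site of the serum response factor (1.41%). Over the 1074 tested genes that held the TEAD core motif the median log2 fold change with Royalactin was -0.03, against 0.00 over the 9162 that did not. Among the 5 printed genes, Cyr61, Ankrd1, Amotl2 and Wwtr1 had lower values in both Royalactin libraries in the comparison that follows, and Yap1 did not. Lats2 and Tead2, without the motif in this window, also had lower values in both. Of all genes tested, 18.9% did. Nothing is read from these counts, because the genes were proposed with this comparison in view.

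Of the matricellular genes, Cyr61 and Thbs1 were far lower with Royalactin, and Ctgf was only slightly lower. Cyr61, also called CCN1, encodes a secreted integrin ligand (chromosome 3, 145309935 to 145312949 of mm9). It had 1789 and 1356 normalized counts in serum/-LIF replicates 1 and 2, and 143 and 234 in serum/-LIF + Royalactin replicates 1 and 2. The groups lay far apart, with means of 1573 ± 306 and 188 ± 64.5 (SD, n = 2), a ratio of 8.35 and a log2 fold change of -3.08 (SE 0.36). In bulk RNA, fewer cells that express a gene and less of its RNA per cell cannot be told apart, here and in the results that follow.

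Thbs1 encodes thrombospondin 1, which binds matrix and cell surface receptors and activates latent TGF-β (chromosome 2, 117937612 to 117952869). It had 1487 and 706 normalized counts in serum/-LIF and 129 and 70.9 with Royalactin. Again both Royalactin libraries were below both others, and the serum/-LIF replicates differed more from each other than those of Cyr61. The means were 1097 ± 552 and 99.8 ± 40.9 (SD, n = 2), and the log2 fold change was -3.41 (SE 0.45).

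Ctgf, or CCN2, is the nearest relative of Cyr61 in these cells and is widely used with it as a readout of YAP (chromosome 10, 24315248 to 24318489). Its normalized counts were 1022 and 781 in serum/-LIF and 704 and 562 with Royalactin. The groups did not overlap, but the gap between them was smaller than the distance between replicates of either group. The log2 fold change was -0.51 (SE 0.32), and it ran from -0.70 to -0.31 as single libraries were removed. Over 22.9% of its exon bases Ctgf overlaps Gm15270 on the opposite strand, and whether reads were counted by strand is not given in the sources used here, so reads of the 2 genes may be mixed.

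The ratio of Cyr61 to Ctgf in a library does not depend on how libraries are scaled to each other. In normalized counts it was 1.75 and 1.74 without Royalactin, and 0.203 and 0.416 with it. Thus Cyr61 exceeded Ctgf in both libraries without Royalactin and was below it in both libraries with Royalactin. The ratio of Thbs1 to Ctgf was 1.46 and 0.903 against 0.183 and 0.126. That of Cyr61 to Thbs1 lay between 1.11 and 3.30 in the 4 libraries, and the groups overlapped.

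**Figure D1:**
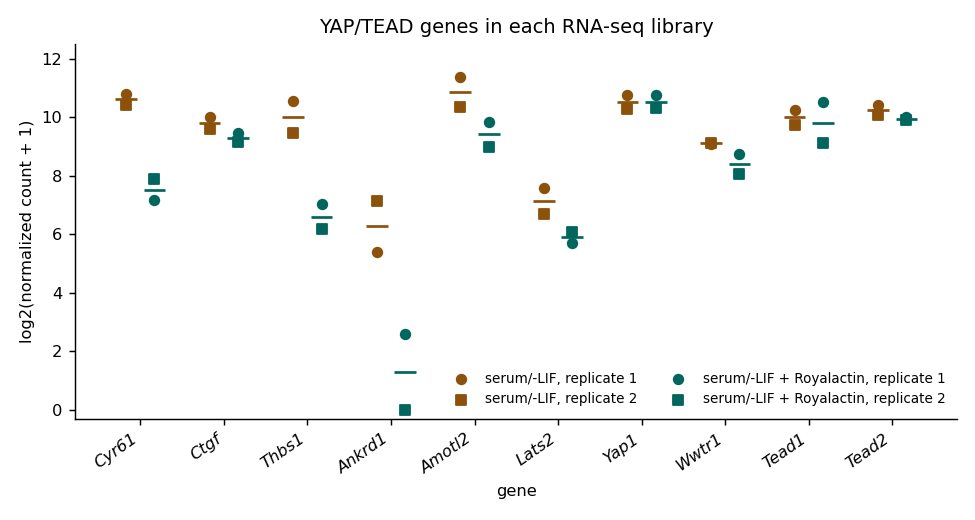
Each point is 1 library, on a log2(normalized count + 1) scale, with circles for replicate 1, squares for replicate 2 and lines for the mean of the log2 values of each group (n = 2). Cyr61, Thbs1 and Ankrd1 show a wide gap between serum/-LIF and serum/-LIF + Royalactin, whereas the values of Yap1 and Tead1 overlap.

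The intracellular targets were all lower with Royalactin by their means. Ankrd1 encodes an ankyrin-repeat protein of stressed muscle and is a sensitive YAP target (chromosome 19, 36186455 to 36194334). It had 41.5 and 140 normalized counts in serum/-LIF (31 and 135 reads) and 5.03 and 0 with Royalactin (5 and 0 reads). Its readings were few, and its serum/-LIF replicates differed by more than 3 times, so the size of its difference is poorly set. The log2 fold change of -4.98 (SE 1.44) became -6.73 with a pseudocount of 0.1 and -3.53 with a pseudocount of 5.

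Amotl2 encodes an angiomotin that binds YAP and holds it in the cytoplasm, and is itself switched on by YAP (chromosome 9, 102619002 to 102635748). Its normalized counts were 2647 and 1291 in serum/-LIF and 914 and 507 with Royalactin. All 4 values were ordered by group, but the replicates of either group differed by more than the gap between the groups. The log2 fold change was -1.44 (SE 0.39). Lats2 encodes the kinase that phosphorylates YAP and is likewise a target of it (chromosome 14, 58260914 to 58377225). It was a weakly expressed gene, with 189 and 102 normalized counts in serum/-LIF and 51.3 and 66.8 with Royalactin. Its groups did not overlap, and the log2 fold change was -1.23 (SE 0.59). Over 4.5% of its exon bases are shared with Xpo4 on the same strand.

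Of the cofactor genes, Yap1 overlapped between the groups and Wwtr1 was lower with Royalactin. Yap1 (chromosome 9, 7931999 to 8004596) had 1716 and 1251 normalized counts in serum/-LIF and 1711 and 1279 with Royalactin. The pairs of values were nearly the same in both cultures, and the log2 fold change was 0.01 (SE 0.31), or -0.21 to 0.24 as single libraries were removed. Wwtr1, the gene for TAZ (chromosome 3, 57259571 to 57379832), had 546 and 554 normalized counts in serum/-LIF and 426 and 264 with Royalactin. Both Royalactin libraries were lower, with a log2 fold change of -0.71 (SE 0.37) that ran from -1.06 to -0.37 as single libraries were removed. Per kilobase of exon, Yap1 made up 61.9% and 53.9% of the summed Yap1 and Wwtr1 level in serum/-LIF and 67.4% and 71.5% with Royalactin, so Yap1 was the larger in all 4 libraries.

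The TEAD genes encode the factors that bring YAP and TAZ to DNA. Tead1 (chromosome 7, 119822832 to 120050319) had 1218 and 858 normalized counts in serum/-LIF and 1456 and 548 with Royalactin. Its Royalactin replicates enclosed both serum/-LIF values, and the sign of its log2 fold change of -0.19 (SE 0.41) turned to 0.51 without serum/-LIF + Royalactin replicate 2. Tead2 (chromosome 7, 52471123 to 52489005) had 1380 and 1067 normalized counts in serum/-LIF and 1020 and 961 with Royalactin, a log2 fold change of -0.29 (SE 0.30). The gap between its groups was smaller than the distance between replicates of either group. Per kilobase of exon, Tead2 was the main TEAD gene in every library, with 67.7% and 68.9% of the family in serum/-LIF and 60.1% and 77.4% with Royalactin.

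As 8 of the 10 genes had both Royalactin libraries below both serum/-LIF libraries, the same count over all 12993 genes tested is needed beside it. It was 18.9% in this direction and 19.7% in the other, in which none of the 10 fell. Nothing is read from this count, because the genes were proposed with this comparison in view. All 10 passed the filter of a mean normalized count of at least 10. Their median log2 fold change was -0.97, against -0.01 over all genes tested.

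**Figure D2:**
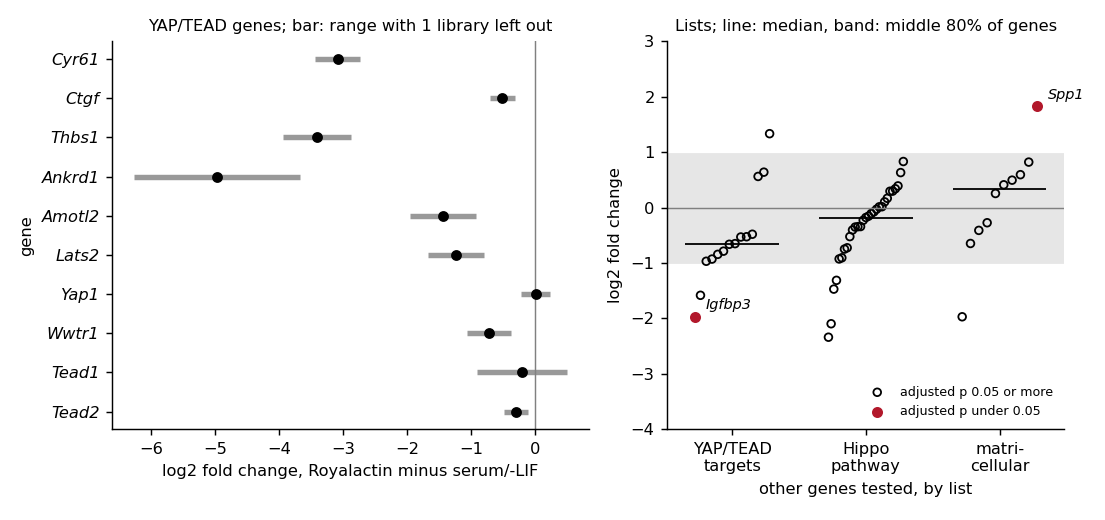
On the left, points give the log2 fold change of each gene with Royalactin relative to serum/-LIF and bars its range with 1 library left out in turn. On the right, each circle is a gene tested from 3 lists, filled where the adjusted p-value was under 0.05, over a band that holds the middle 80% of genes tested. On the left the bars of Yap1 and Tead1 cross 0 and those of the other 8 genes stay below it, and Igfbp3 and Spp1 are the filled points on the right.

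Per kilobase of exon, which allows levels of different genes to be compared, Cyr61 was the highest of the 10 genes in serum/-LIF, with 882 and 669 normalized counts per kilobase. Ctgf followed with 410 and 314, Amotl2 with 421 and 205 and Tead2 with 296 and 229, and these 3 overlapped in turn. Thbs1 (245 and 116) overlapped both Tead2 and Yap1 (185 and 135). Below them and without overlap stood Wwtr1 (114 and 116) and then Tead1 (108 and 76.4). Ankrd1 (23.5 and 79.2) overlapped Tead1 above it and Lats2 (25.8 and 14.0) below it. With Royalactin the order was led by Ctgf at 283 and 226 and Tead2 at 219 and 206, whose ranges did not overlap. Yap1 came after them at 185 and 138. Cyr61 was now at 70.4 and 115, and its range overlapped those of Amotl2, Wwtr1 and Tead1. Thbs1 at 21.2 and 11.7, Lats2 at 7.02 and 9.14 and Ankrd1 at 2.85 and 0 closed the order without overlap. These levels rest on exon lengths of the GENCODE models for mm9, which may not be the models used for counting.

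Within the gene families, the changes with Royalactin were uneven. In serum/-LIF, Cyr61 took 68.1% and 67.9% of the summed level of the 6 CCN genes per kilobase, and with Royalactin 19.4% and 32.9%. Ctgf took nearly all the rest, 77.9% and 64.5% with Royalactin, and Nov, Wisp1, Wisp2 and Wisp3 stayed under 2% each in every library. Of the 4 thrombospondin genes, Thbs1 held 71.9% and 70.1% in serum/-LIF and 25.6% and 16.2% with Royalactin. There Thbs3, whose own normalized counts overlapped between the groups (265 and 156 against 222 and 266), was the largest, with 55.7% and 76.4%. Lats1, the other LATS kinase, overlapped between the groups at 511 and 628 against 723 and 427 normalized counts, and held 73.0% to 93.4% of the pair per kilobase. Amotl2 held 56.6% to 69.6% of the angiomotin level in the 4 libraries, with shares that overlapped between the groups.

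**Figure D3:**
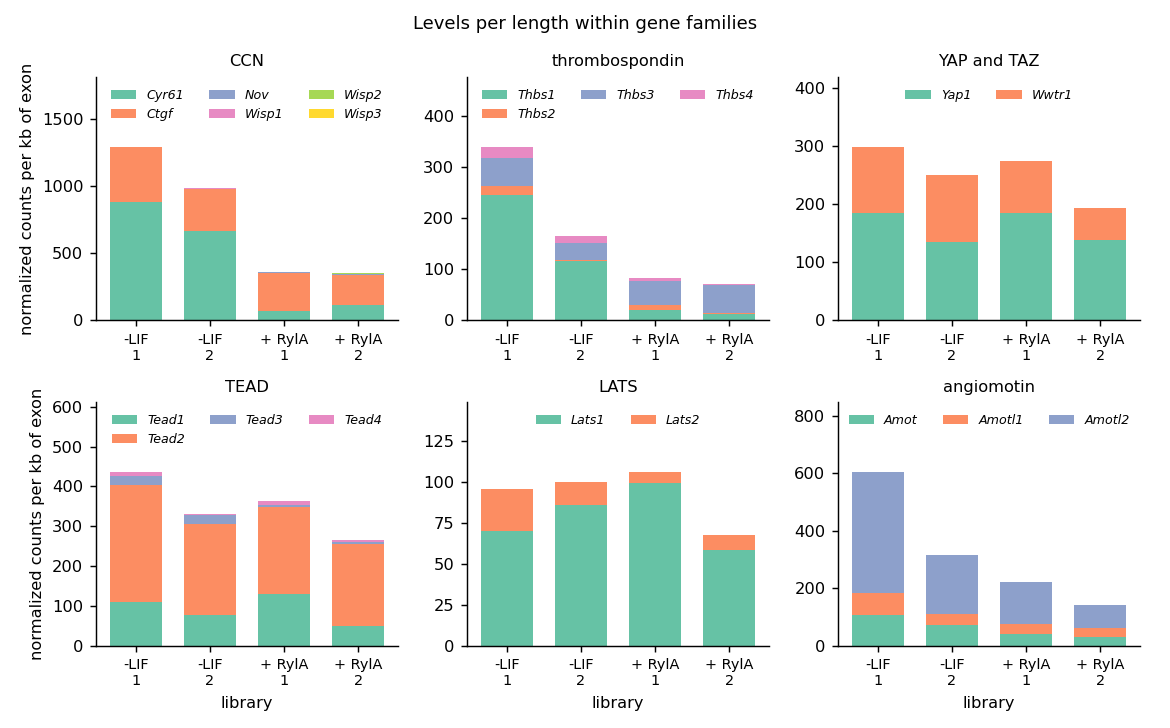
Stacked bars give the normalized counts per kilobase of exon of each gene in 6 families, with 1 bar per library (-LIF, serum/-LIF; + RylA, serum/-LIF + Royalactin). The Cyr61 part of the CCN bars and the Thbs1 part of the thrombospondin bars shrink with Royalactin, and the Ctgf, Yap1 and Tead2 parts change much less.

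Other genes of the pathway were taken from 3 lists and tested over all genes with limma. Of 17 further genes of a published core set of YAP/TEAD targets, 14 passed the filter, 11 with a log2 fold change below 0 and 3 above, and the median was -0.66 (-0.40 without serum/-LIF replicate 1). Over all genes tested, 6579 of 12993 were below 0. Of the 14, only Igfbp3 passed an adjusted p-value of 0.05, as did 0.493% of all genes tested. It encodes a secreted binding protein of the insulin-like growth factors and fell from 901 and 829 normalized counts in serum/-LIF to 218 and 223 with Royalactin. Its log2 fold change was -1.97 (SE 0.34, limma with Benjamini-Hochberg adjustment, adjusted p = 0.021). With any of the 4 libraries left out, no gene of the table passed in limma (adjusted p from 0.18 to 1.00 for Igfbp3), while its log2 fold change stayed between -2.03 and -1.905.

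The other genes named from this list did not pass. Axl, a receptor tyrosine kinase, had 100 and 60.0 normalized counts in serum/-LIF and 18.1 and 35.1 with Royalactin (limma adjusted p = 0.576, Benjamini-Hochberg). Myof, a membrane-repair protein of the ferlin family, had 131 and 128 against 53.3 and 81.2 (limma adjusted p = 0.654). Dock5, an activator of the GTPase Rac, went the other way, with 407 and 412 against 1221 and 875 and a log2 difference of 1.33 (SE 0.33, limma adjusted p = 0.127). Of the 11 promoters of this list in the RefSeq table, 3 held the TEAD core motif. Rbms3 and Ccdc80 were at 0 in all libraries.

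Of 32 further Hippo pathway genes, 29 were tested, 19 with a log2 fold change below 0 and 10 above. None passed an adjusted p-value of 0.05 in limma, and 6 had an unadjusted p-value under 0.05, against 9.34% of all genes tested. Of these, 3 were lower by 2-fold or more, against 3.61% of all genes tested. The median log2 fold change was -0.18 (-0.41 without serum/-LIF + Royalactin replicate 1). The 4 largest differences were all decreases in the mean. Vgll3, a cofactor that competes for TEAD, had 81.6 and 66.2 normalized counts in serum/-LIF and 16.1 and 11.7 with Royalactin (limma adjusted p = 0.389, Benjamini-Hochberg). Tead3 had 100 and 102 against 19.1 and 27.5, a log2 fold change of -2.10 (SE 0.73, limma adjusted p = 0.341), while the counts of Tead4 overlapped at 34.8 and 13.5 against 40.2 and 17.9. Dchs1, a protocadherin that binds Fat4, had 81.6 and 54.9 against 36.2 and 15.1 (limma adjusted p = 0.635). Amot, the founding angiomotin, had 908 and 601 against 352 and 251, a log2 fold change of -1.31 (SE 0.37, limma adjusted p = 0.189).

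Upstream of LATS, Stk4 and Nf2 were among the genes that did not have lower values with Royalactin. Stk4, which encodes the upstream kinase MST1, had 1249 and 1484 normalized counts in serum/-LIF and 1382 and 1550 with Royalactin, and its groups overlapped. Nf2, the gene for Merlin, which activates LATS at the membrane, had 1204 and 686 against 1854 and 1414 (0.83 on the log2 scale, limma adjusted p = 0.446). Stk4 and Nf2 lie outside the rule for naming genes and were chosen after their values were seen. They do not stand for the list. Of its 29 tested genes, 10 had both Royalactin libraries below both serum/-LIF libraries, Wwc1, Wwc2, Sav1 and Rassf1 among them. In the other direction there were 3, Nf2, Map4k4 and Taok2. Over all genes tested these shares were 18.9% and 19.7%.

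The other matricellular genes were mixed in direction. Only 10 of 21 passed the filter, 4 with a log2 fold change below 0 and 6 above, and their median of 0.33 turned to -0.38 without serum/-LIF replicate 2. Of the 10, only Spp1 passed the adjusted threshold that 0.493% of all genes passed, and it rose. It encodes osteopontin, a secreted ligand of integrins, and went from 844 and 1095 normalized counts in serum/-LIF to 3438 and 3391 with Royalactin, a log2 fold change of 1.83 (SE 0.29, limma with Benjamini-Hochberg adjustment, adjusted p = 0.0132). With any library left out, where no gene passed, its log2 fold change stayed between 1.64 and 2.015 (adjusted p from 0.166 to 1.00 in limma). Thbs4, a thrombospondin of tendon and muscle, had 70.9 and 47.6 against 19.1 and 10.3 (limma adjusted p = 0.542), and Thbs2 had 114 and 16.6 against 57.3 and 13.1 (limma adjusted p = 0.895), with overlap. Smoc1, a matricellular calcium-binding protein, had 111 and 141 against 225 and 218 (limma adjusted p = 0.628).

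The 5 tested genes whose log2 profile over the 4 libraries lay nearest to that of Cyr61, as Euclidean distance after centring each gene, were Adamts15, Xkr6, Gm2016, Tspan7 and Fam131b, at distances of 0.31 to 0.60. Adamts15, a secreted metalloprotease that cleaves proteoglycans, had 138 and 115 normalized counts in serum/-LIF and 11.1 and 23.4 with Royalactin. None of the 10 genes was among the 5. With 4 libraries such likeness is a description only.

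Of 8 pluripotency genes, all tested, 7 had a log2 fold change above 0 and 3 passed the adjusted threshold in limma, against 0.493% of all genes tested. The 3 were Esrrb (233 and 181 normalized counts in serum/-LIF against 1640 and 1390 with Royalactin), Zfp42 (491 and 704 against 2726 and 3083) and Sox2 (1415 and 1300 against 4381 and 3476). Tdgf1 was the 1 gene below 0, at 10914 and 14553 against 8696 and 9728. The summed level of the 8 was 25147 and 31236 normalized counts in serum/-LIF and 33775 and 41025 with Royalactin. Tdgf1, Dppa5a and Pou5f1 were its largest parts. Markers of other cells moved with the groups in part. Of 7 smooth muscle genes, which include many targets of the serum response factor, 5 were tested, all with a log2 fold change below 0, and 2 of them, Tagln and Cnn1, passed the same threshold. The summed level of the 7 was 3080 and 3486 normalized counts in serum/-LIF and 452 and 571 with Royalactin. Tagln was its largest part, at 1896 and 2525 against 135 and 240. Smtn overlapped at 177 and 114 against 133 and 86.0. The 2 not tested also overlapped, Myh11 at 4.01 and 13.5 against 0 and 4.82 and Actg2 at 1.34 and 0 against 1.01 and 0.688. Of 11 fibroblast markers, 4 were tested, 3 with a log2 fold change below 0, and none passed (2 at an unadjusted p-value under 0.05 in limma, against 9.34% of all genes tested). Their sum was 334 and 235 against 180 and 113, and Pdgfrb, Fap and S100a4 were at 0 in all 4 libraries. Decorin (Dcn) was at 37.4 and 31.1 normalized counts in serum/-LIF and at 0 in both Royalactin libraries. Pdgfra was at 52.2 and 0 against 42.2 and 32.4 normalized counts, and Thy1 at 41.5 and 33.1 against 45.3 and 29.6, both with overlap. Of 9 primitive endoderm markers, 5 were tested, 2 with a log2 fold change below 0 and 3 above, and none passed. The sums of the 9 were 440 and 346 against 348 and 253, mostly Dab2 at 284 and 245 against 188 and 126. Ttr was also lower in both Royalactin libraries, at 48.1 and 50.7 against 12.1 and 31.7. Gata4 (28.1 and 8.28 against 49.3 and 44.7) and Sox17 (4.01 and 0 against 11.1 and 7.57, not tested) were higher in both. The others overlapped. Of 6 endothelial markers, 3 were tested (Pecam1, Tek and Kdr), all with a log2 fold change above 0. The sums of the 6 were 376 and 207 against 874 and 844, and Pecam1 was the largest part of them at 221 and 138 against 638 and 584. These sums mainly follow Pecam1 and do not stand for the 6 genes. Whether Pecam1 came from endothelial cells was not tested. The 3 not tested did not rise. Tie1 was at 28.1 and 7.25 against 0 and 1.38, Cdh5 overlapped at 22.7 and 0 against 0 and 2.75, and Emcn was at 0 in all 4 libraries. The part of these cells in the differences of the YAP/TEAD genes was not tested.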

How the data were processed

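Of the deposited data, the 4 RNA-seq libraries of J1 mESCs were analysed, and ATAC-seq was not used here. The authors depleted ribosomal RNA, mapped reads to mm9 with Tophat, counted them by gene with HTSeq-count (strand setting and annotation not given in the sources used here) and divided by DESeq size factors. The deposited values are thus a signal proportional to reads, in normalized counts. All values of a library are whole multiples of the value of 1 read (within 0.01 read), which gave the read numbers. In serum/-LIF + Royalactin replicate 1 this step is 1.01, too close to 1 for an automatic check, so no count test was run.

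Values were log2-transformed with a pseudocount of 1, and limma 3.58.1 (R 4.3.3, variance trend, two-sided) was fitted to the 12993 genes with a mean of at least 10, with Benjamini-Hochberg adjustment over all of them. Fold changes on this scale understate weakly expressed genes. The fit was also run on simulated counts of independent libraries, with a replicate spread set by expression level alone. That setting is simpler than the data, so the run gives no support to the calls made here. The members, lists and naming rule were chosen with earlier results of these data known. The named genes are the 10 members, their family relatives, per list those past an adjusted p-value of 0.05 plus the 4 largest differences, and the 5 nearest to Cyr61. Exon lengths and positions are from GENCODE for mm9. Exon tiles of 75 bases were mapped with minimap2 2.31-r1302, and at most 0.9% of those of any of the 10 genes (Yap1) matched elsewhere with up to 2 mismatches. Alternatives were other pseudocounts, filters and scalings, a replicate block, no variance trend, and each library left out.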

Additional observations from a re-analysis of the deposited data

How the results depend on the processing

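The number of genes past an adjusted p-value of 0.05 in limma (Benjamini-Hochberg), 64 as reported, fell to 32 at a pseudocount of 0.1 and to 34 when every gene above 0 was kept. It was 99 where the mean had to reach 50, and 391 in the fit with the replicate block. It was 0 without the variance trend, where 1135 genes had an unadjusted p-value under 0.05, and 0 with any library left out (428 to 2496 genes unadjusted), a fit with 1 residual degree of freedom that assumes a lone library varies like the other group. The number at an unadjusted p-value under 0.05 and 2-fold, 927, ranged from 427 to 1925 with a library left out. No label says whether the replicate numbers pair the libraries, so a batch shared by same-numbered libraries cannot be told. Their deviations had a Pearson correlation of 0.0851 across genes. Rn45s took 46.6% and 38.4% of reads in the replicate 1 libraries without and with Royalactin, and 21.6% and 9.08% in those of replicate 2. With the replicate block, 2 of the other YAP/TEAD targets (Igfbp3 and Dock5), 1 Hippo pathway gene (Amot) and 1 matricellular gene (Spp1) passed, against 1, 0 and 1. Without the trend or with a library left out 0 passed in each list. Leaving out libraries moved the median log2 fold change of the YAP/TEAD targets between -0.92 and -0.40, of the Hippo pathway genes between -0.41 and -0.062 and of the matricellular genes between -0.38 and 0.68. Thbs2, not past the threshold, at -0.65, ranged from -2.001 to 0.71 with a library left out and was above 0 without serum/-LIF replicate 1 (0.71) and without serum/-LIF + Royalactin replicate 2 (0.38). The causes were not tested. The median of the 10 members stayed between -1.19 and -0.69 under all alternatives run for it.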

Other observations

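None of the 7 promoters searched among the 10 YAP/TEAD genes held a CArG box. Of the 10236 tested genes with a promoter in the RefSeq table, 119 held a CArG box in the 250 bases before the start site. Their median log2 fold change with Royalactin was -0.19 and 63.0% of them had a log2 fold change below 0, against 0.00 and 50.2% of the 10117 genes without it. For the AP-1 motif the values were 0.05 and 46.1% of 388 genes. These are descriptions of the 4 libraries with no test, since genes are not replicates.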
